A study of Mus musculus with 6 samples.

Results

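The genes of platelet-derived growth factors (PDGFs) and their receptors were followed in neonatal mouse tail tip fibroblasts, primary connective tissue cells, with and without *Hotair*, a long noncoding RNA of the Hoxc cluster. The 7 genes were taken by name and not by their values: the receptors *Pdgfra* and *Pdgfrb*, the receptor-like gene *Pdgfrl*, and the ligands *Pdgfa*, *Pdgfb*, *Pdgfc* and *Pdgfd*. They are 7 of 18193 genes measured, and all 15 probe sets given to one of them alone were used, of 45037. A probe set is a group of short probes against a transcript. The samples were 3 of the *Hotair* knockout genotype and 3 of the wild-type genotype, all backcrossed to C57BL6, with 1 array each. The labels name neither the knockout allele nor the source of each sample. Whether replicates were different animals or cultures is therefore unknown, and every p-value reflects the variation among these samples, part of which may be technical. *Hotair* itself was not analysed here. Values are log2 intensities, on which a difference of 1 is a doubling, and differences are knockout minus wild type.

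PDGF ligands are secreted dimers. PDGF-A, PDGF-B and PDGF-C bind the alpha receptor, and PDGF-B and PDGF-D the beta receptor, both tyrosine kinases that dimerise on binding and signal through PI 3-kinase, phospholipase C gamma and Ras. PDGF-C and PDGF-D are secreted in a latent form that proteases must cut, such as tissue plasminogen activator for PDGF-C. In skin, the alpha receptor marks dermal fibroblasts, and the beta receptor is best known on pericytes, the cells that wrap small vessels.

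Replicate 1 of both genotypes stood apart from the other arrays, which bears on the values below. A first principal component holding 48.9% of the variance placed it at −82.7 in knockout and −114.7 in wild type, and placed the 4 other arrays between 39.3 and 74.7. Proliferation genes were low on both of these arrays, with medians relative to each gene's mean of −1.38 in knockout and −1.56 in wild type, against 0.56 to 0.98 on the others. Knockout replicate 1 also had a 3′ minus 5′ difference of 0.75 for the *Gapdh* control probes, a measure of RNA quality, while the other arrays lay below 0. The part of these differences in the results was not tested. Results are also given without replicate 1 of both genotypes, which leaves 2 arrays against 2. This setting was chosen with earlier results of these data known, so its adjusted p-values are not an independent test.

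*Pdgfc* was higher in knockout on every array, *Pdgfa* was lower in knockout replicates 2 and 3, *Pdgfra* was higher in knockout at each replicate number, and *Pdgfrb* differed little. In each gene's brightest probe set the difference was 1.17 ± 0.27 (SE) for *Pdgfc*, −1.68 ± 0.97 for *Pdgfa*, 1.65 ± 0.96 for *Pdgfra* and 0.30 ± 0.16 for *Pdgfrb*. By limma's test, which shares the spread across genes, none of the 7 genes had an adjusted p under 0.05, and neither had any other gene (0%), the smallest being 0.743. At an unadjusted p under 0.05 stood 1 of the 7, *Pdgfc*, against 6.68% of all genes. With the replicate number as a block, 3 of the 7 did, *Pdgfra*, *Pdgfa* and *Pdgfc*, against 11.1% of all genes, and 0 passed after adjustment. Without replicate 1 of both genotypes, 2 of the 7 passed after adjustment, against 14.0% of all genes. They were *Pdgfc*, higher, as were 7.56% of all genes, and *Pdgfa*, lower, as were 6.41%.

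**Figure D1:**
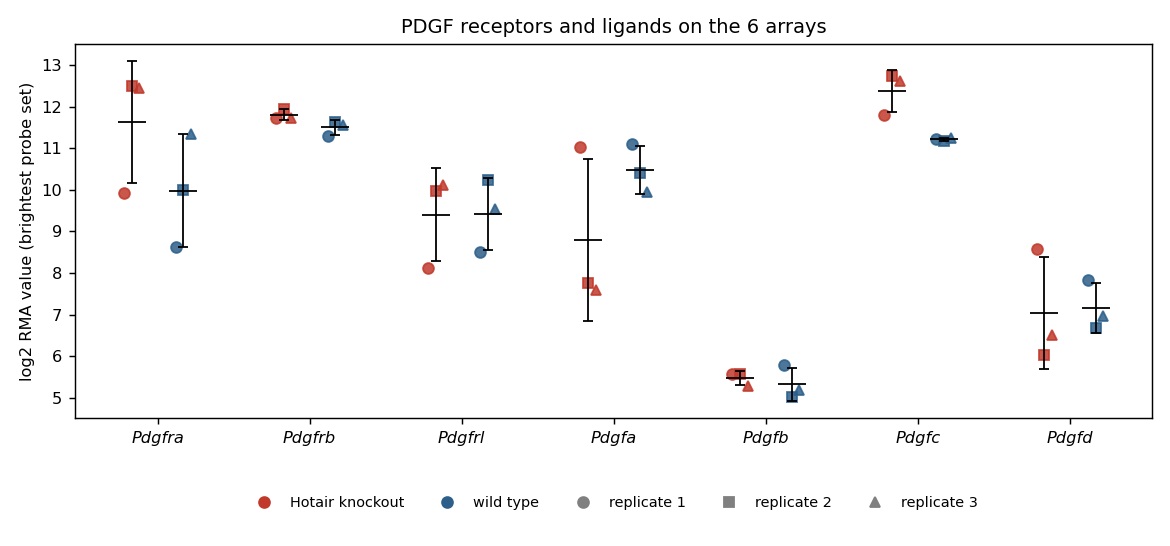
Log2 values (vertical axis) of the brightest probe set of each of the 7 genes on the 6 arrays, with *Hotair* knockout left of wild type. Marker shapes give the replicate number, and bars show the mean and SD of 3 arrays. Knockout *Pdgfc* lies wholly above wild type, and knockout *Pdgfa* is at 11.04 in replicate 1 and at 7.76 and 7.59 in the others.

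Promoter sequences are shown for *Pdgfra*, *Pdgfa* and *Pdgfc*, the genes with the largest differences. They run from 250 bases before to 50 bases after a transcript start, 5′ to 3′ on the gene's strand, from RefSeq on GRCm38.p6, and capitals mark CG dinucleotides. Windows of 4 of the 7 genes were used, those of *Pdgfra*, *Pdgfa*, *Pdgfc* and *Pdgfd*, and none of *Pdgfrb*, *Pdgfrl* or *Pdgfb*. The *Pdgfra* window is chr5:75152001-75152300 on the plus strand and the *Pdgfc* window chr3:81036166-81036465 on the plus strand. The *Pdgfa* windows are chr5:138994895-138995194, upstream, and chr5:138994232-138994531, downstream, on the minus strand.
Pdgfra: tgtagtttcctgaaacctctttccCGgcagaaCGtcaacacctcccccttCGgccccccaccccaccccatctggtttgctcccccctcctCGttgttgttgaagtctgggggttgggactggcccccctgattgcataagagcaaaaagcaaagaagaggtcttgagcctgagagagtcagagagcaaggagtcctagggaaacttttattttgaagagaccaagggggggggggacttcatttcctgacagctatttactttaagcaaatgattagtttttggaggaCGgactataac
Pdgfa upstream start: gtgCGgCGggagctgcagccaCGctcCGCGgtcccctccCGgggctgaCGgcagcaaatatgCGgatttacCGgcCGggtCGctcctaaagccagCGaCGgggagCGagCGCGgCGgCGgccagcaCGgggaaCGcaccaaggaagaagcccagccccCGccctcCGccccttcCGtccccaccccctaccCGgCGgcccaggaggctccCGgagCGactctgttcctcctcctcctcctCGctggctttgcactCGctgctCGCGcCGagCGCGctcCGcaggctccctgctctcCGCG
Pdgfa downstream start: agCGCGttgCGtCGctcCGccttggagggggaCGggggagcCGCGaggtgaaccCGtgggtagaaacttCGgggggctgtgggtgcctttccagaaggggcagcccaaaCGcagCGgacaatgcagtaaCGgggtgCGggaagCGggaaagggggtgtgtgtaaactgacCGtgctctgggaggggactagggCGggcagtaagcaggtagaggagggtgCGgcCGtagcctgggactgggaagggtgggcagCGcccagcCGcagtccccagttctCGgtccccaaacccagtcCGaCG
Pdgfc: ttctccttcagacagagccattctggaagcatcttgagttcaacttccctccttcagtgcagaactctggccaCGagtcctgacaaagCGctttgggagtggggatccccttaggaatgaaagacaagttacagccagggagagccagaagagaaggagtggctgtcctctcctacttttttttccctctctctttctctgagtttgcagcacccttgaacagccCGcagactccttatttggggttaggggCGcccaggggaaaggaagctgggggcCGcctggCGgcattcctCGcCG

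The *Pdgfa* windows are rich in CG dinucleotides and the others are not. They hold 37 at the upstream and 24 at the downstream start, at percentiles 94.4 and 80 of 32851 windows whose median is 7. *Pdgfra* has 5 and *Pdgfc* has 8. The GC box GGGCGG, bound by Sp1, was searched on both strands and found 2 times in the upstream and 1 time in the downstream *Pdgfa* window, and in 35.7% of all windows. The TEAD letters GGAATG occur 2 times in the *Pdgfc* window and in 14.7% of all windows. The *Pdgfra* window held none of the letters searched. None of the windows shown held GCGNGGGCG (Egr1), TGANTCA (AP-1), CACGTG (E-box), CCAAT or TATAAA, present in 5.55%, 7.81%, 7.15%, 37.4% and 13.6% of all windows. The *Pdgfd* window, used but not shown, held TATAAA 1 time and none of the other letters searched. A match describes the letters only.

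*Pdgfra*, the alpha receptor, measured 9.93, 12.50 and 12.45 in knockout, against 8.62, 9.99 and 11.34 in wild type (replicates 1, 2 and 3). Knockout was above wild type at each replicate number, but knockout replicate 1 lay below wild-type replicates 2 and 3, so the genotypes overlapped. The mean was 11.63 ± 1.47 in knockout and 9.98 ± 1.36 in wild type (SD, n = 3 each). The difference of 1.65, a 3.13-fold change, had a 95% confidence interval of −0.72 to 4.01 (limma adjusted p = 0.821). By replicate number it was 1.31, 2.52 and 1.11. The replicate block narrowed the interval to 0.79 to 2.50 (limma adjusted p = 0.424), and without replicate 1 of both genotypes the difference was 1.81 ± 0.44 (SE; limma adjusted p = 0.0555). Without wild-type replicate 1 alone it was 0.96, and without knockout replicate 1 alone 2.50. In bulk RNA such as this, fewer cells of a type and less RNA per cell cannot be told apart.

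The 3 probe sets of *Pdgfra* followed each other, with Pearson's r of 0.94 to 0.97 over the 6 arrays, given as a description. The second, 1421916_at, read 6.81, 9.26 and 9.29 in knockout, against 6.30, 6.89 and 7.60 in wild type. Knockout replicates 2 and 3 were above every wild-type array, and the difference was 1.52 ± 0.76 (SE). Without replicate 1 of both genotypes it rose by 2.03 ± 0.27 (limma adjusted p = 0.0393 over all probe sets). The third, 1438946_at, differed by 0.56 ± 0.36, and by 0.62 ± 0.23 without replicate 1 of both genotypes (limma adjusted p = 0.253 over all probe sets). In that fit over all probe sets the brightest, 1421917_at, did not pass either (limma adjusted p = 0.125).

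*Pdgfrb*, the beta receptor, was nearly level. Its brightest probe set, 1436970_a_at, read 11.74, 11.95 and 11.73 in knockout, against 11.31, 11.64 and 11.57 in wild type. All knockout values lay above the wild-type values, though by little, and the mean was 11.81 ± 0.13 in knockout and 11.50 ± 0.17 in wild type (SD, n = 3 each). The difference of 0.30 had a 95% interval of −0.083 to 0.68 (limma adjusted p = 0.787). Its other probe set, 1417148_at, overlapped between genotypes, with 9.08, 10.08 and 9.49 in knockout, against 9.23, 9.70 and 9.22 in wild type. Groups did not overlap for 2 of the 7 genes, *Pdgfrb* and *Pdgfc*, against 9.93% of all genes.

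The balance of the receptors was taken within each array as the *Pdgfra* value minus the *Pdgfrb* value, of which only the difference between arrays has a meaning. It was −1.81, 0.55 and 0.72 in knockout, against −2.69, −1.65 and −0.23 in wild type. The genotypes overlapped through knockout replicate 1. The difference was 1.35, and by replicate number 0.88, 2.20 and 0.95. An exact two-sided permutation test gave p = 0.3, and 3 arrays against 3 cannot go below 0.1.

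*Pdgfrl* encodes a protein that resembles the outer part of the receptors and has no kinase. Its single probe set read 8.11, 9.96 and 10.13 in knockout, against 8.50, 10.23 and 9.54 in wild type. Replicate 1 was lowest in each genotype and the genotypes overlapped, with a difference of −0.025 ± 0.69 (SE; limma adjusted p = 0.999).

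*Pdgfa*, whose product acts on the alpha receptor, had the lowest difference of the 7 genes. Its brightest probe set, 1418711_at, read 11.04, 7.76 and 7.59 in knockout, against 11.09, 10.40 and 9.95 in wild type. Knockout replicates 2 and 3 lay below every wild-type array, while replicate 1 was nearly equal in the genotypes. The mean was 8.80 ± 1.94 in knockout and 10.48 ± 0.58 in wild type (SD, n = 3 each). The difference of −1.68 had a 95% interval of −4.07 to 0.71 (limma adjusted p = 0.821), and by replicate number it was −0.055, −2.64 and −2.35. With the replicate block the interval was −3.16 to −0.20 (limma adjusted p = 0.428). Without replicate 1 of both genotypes the difference was −2.50 ± 0.21 (SE), a 5.64-fold fall (limma adjusted p = 0.00609). The other probe set, 1449187_at, gave −1.71 ± 0.92 on all arrays and −2.52 ± 0.21 without replicate 1 (limma adjusted p = 0.0257 over all probe sets). Without knockout replicate 1 alone the difference was −2.80, and without knockout replicate 3 alone −1.08.

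*Pdgfc*, another ligand of the alpha receptor, lay on the opposite side. Its brightest probe set, 1449351_s_at, read 11.80, 12.73 and 12.61 in knockout, against 11.22, 11.17 and 11.25 in wild type. The wild-type values were close together, and all knockout values lay above them. The mean was 12.38 ± 0.51 in knockout and 11.22 ± 0.04 in wild type (SD, n = 3 each). The difference of 1.17, a 2.24-fold change, had a 95% interval of 0.50 to 1.83 (limma adjusted p = 0.743), and its p ranked 87 among 18193 genes. By replicate number it was 0.58, 1.56 and 1.36. *Pdgfc* rose by 1.46 ± 0.15 (SE) without replicate 1 of both genotypes (limma adjusted p = 0.00883), and by 1.46 without knockout replicate 1 alone (limma adjusted p = 0.0451).

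The other *Pdgfc* probe set, 1419123_a_at, read 11.08, 12.32 and 12.17 in knockout, against 10.87, 10.86 and 11.04 in wild type. Its groups did not overlap either, though knockout replicate 1 and wild-type replicate 3 nearly met. It differed by 0.93 ± 0.35 (SE), and by 1.30 ± 0.15 without replicate 1 of both genotypes (limma adjusted p = 0.0344 over all probe sets). Of the 15 probe sets, 0 passed over the 6 arrays after adjustment, and 2 had an unadjusted p under 0.05, both of *Pdgfc*, against 5.34% of all probe sets. With the block 7 did, against 8.88%, and without replicate 1 of both genotypes 5 passed after adjustment, against 4.08%. The 7 and the 5 were all of *Pdgfra*, *Pdgfa* and *Pdgfc*. Within each of these genes the probe sets followed each other (Pearson's r of 0.94 to 0.999), so they are not separate results. In 3 of the 15 the groups did not overlap, against 8.91%, and 9 differed the same way at each replicate number, against 28.4%.

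*Pdgfb*, whose product binds both receptors and which endothelial cells and platelets are known to make, was dim. Its brighter probe set read 5.57, 5.58 and 5.28 in knockout, against 5.78, 5.01 and 5.19 in wild type, close to the array medians of 5.56 to 5.68. The genotypes overlapped, with a difference of 0.15 ± 0.24 (SE; limma adjusted p = 0.985). The dimmer probe set averaged 4.47 ± 0.13 in knockout and 4.72 ± 0.24 in wild type (SD, n = 3 each).

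*Pdgfd*, whose product acts on the beta receptor, followed the replicates. Its brightest probe set read 8.58, 6.04 and 6.52 in knockout, against 7.83, 6.69 and 6.96 in wild type. Replicate 1 was highest in each genotype and the genotypes overlapped. The difference was −0.11 ± 0.71 (SE; limma adjusted p = 0.997), and by replicate number 0.75, −0.65 and −0.45. Its other probe sets were dimmer, with 4.41 to 5.51 in knockout and 4.66 to 5.72 in wild type for 1426319_at. Of the 7 genes, 4 differed in the same direction at each replicate number (*Pdgfra*, *Pdgfrb*, *Pdgfa* and *Pdgfc*), against 30.5% of all genes.

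**Figure D2:**
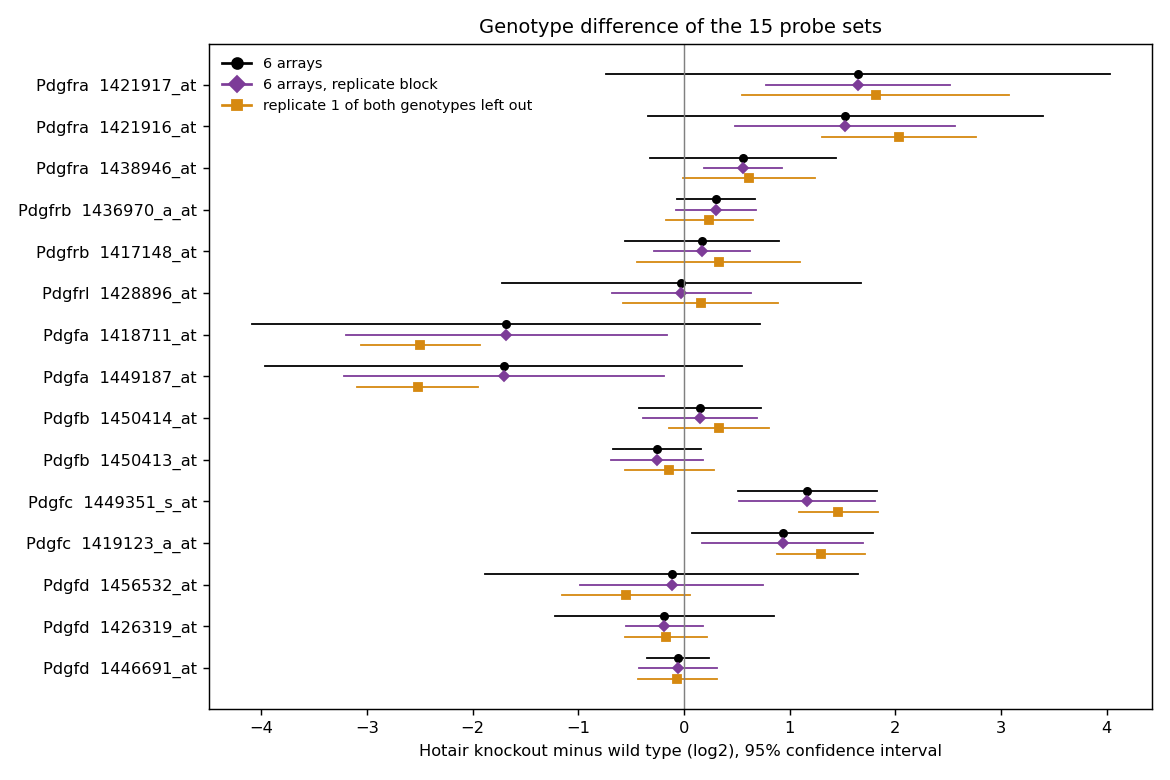
Knockout minus wild type (log2, horizontal axis) with 95% confidence intervals for the 15 probe sets, with all 6 arrays, with the replicate block, and without replicate 1 of both genotypes. The intervals of both *Pdgfc* probe sets lie above 0 in each fit, those of both *Pdgfa* probe sets lie below 0 in the last 2, and those of *Pdgfrl*, *Pdgfb* and *Pdgfd* span 0.

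**Figure D3:**
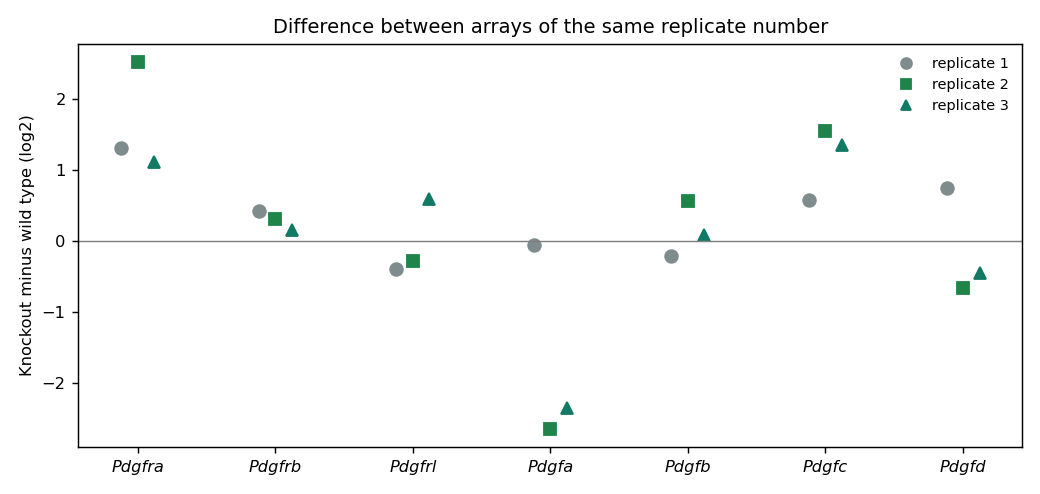
Knockout minus wild type (log2, vertical axis) between arrays of the same replicate number, for the brightest probe set of each gene. *Pdgfa* is at −0.055 for replicate 1 and at −2.64 and −2.35 for the others, while *Pdgfra*, *Pdgfrb* and *Pdgfc* are above 0 for each.

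Over the 6 arrays *Pdgfa* ran against *Pdgfra*, with Pearson's r of −0.93, and against *Pdgfc* (−0.87), and *Pdgfrl* ran against *Pdgfd* (−0.94). These are descriptions over arrays that share the genotype and replicate differences above. The genes most like *Pdgfra* were *Rprd2*, *Pogz* and *Efna5*, an ephrin ligand, at 0.995, 0.994 and 0.993. They come from 5389 candidates with a range of at least 1 and a mean over 7. Of these candidates, 130 had r over 0.95 with *Pdgfra*, so the named genes are not particular to it. For *Pdgfrb* 9 genes did. The most opposed were *Habp4*, *Rabac1* and *Kdelr1* at −0.996, −0.992 and −0.992. *Efna5* read 9.38, 10.99 and 11.11 in knockout, against 8.66, 9.71 and 10.34 in wild type, so like *Pdgfra* it was lowest in replicate 1 of each genotype. For *Pdgfrb* the most like were *Rnf150*, *Zfp369* and *Mtx3* at 0.986, 0.984 and 0.974, and the most opposed *Nfkbib*, *Fbxo46* and *Fam98c* at −0.986, −0.982 and −0.981.

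The genes beside *Pdgfra* had small differences, but several of them were dim. The 3 measured genes on each side in RefSeq's order, among them the related receptors *Kit* and *Kdr*, differed by between −0.37 and 0.11, and the 6 beside *Pdgfa* by between −0.12 and 0.38. Beside *Pdgfc*, the noncoding RNA *A830029E22Rik* read 8.74, 7.62 and 7.94 in knockout, against 6.22, 4.04 and 5.76 in wild type. Its difference was 2.76 ± 0.62 (SE; limma adjusted p = 0.743), and 2.88 without replicate 1 of both genotypes (limma adjusted p = 0.0315). The next gene, *Ctso*, which encodes a cathepsin, read 8.54, 8.68 and 9.17 in knockout, against 7.98, 7.50 and 7.95 in wild type, a difference of 0.99 ± 0.24, and 1.20 without replicate 1 (limma adjusted p = 0.0378). In neither did the genotypes overlap, against 9.93% of all genes without overlap. Without replicate 1 of both genotypes 14.0% of all genes passed. On the other side of *Pdgfc*, *Gask1b* lay in the opposite direction, with 11.39, 9.06 and 8.35 in knockout, against 11.62, 11.98 and 11.65 in wild type, also without overlap. Its difference was −2.15 ± 0.77 (SE; limma adjusted p = 0.743), and −3.11 without replicate 1 (limma adjusted p = 0.00698). *Glrb* differed by 0.90 ± 0.49, *Gria2* by 0.081 ± 0.13 and *Tdo2* by 0.17 ± 0.17. *Gria2* and *Tdo2* were dim, at 4.91 to 5.14 and 4.09 to 4.58 over the 6 arrays. Genes beside members with small differences also passed without replicate 1 of both genotypes (limma adjusted p between 0.00674 and 0.0286). Beside *Pdgfrl*, *Mtus1* differed there by −2.37 and *Pcm1* by −0.93, and beside *Pdgfrb*, *Slc26a2* differed by −0.82. Beside *Pdgfb*, *Mgat3* differed by 1.94 and *Cbx7* by 0.93, while beside *Pdgfd* none passed.

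**Figure D4:**
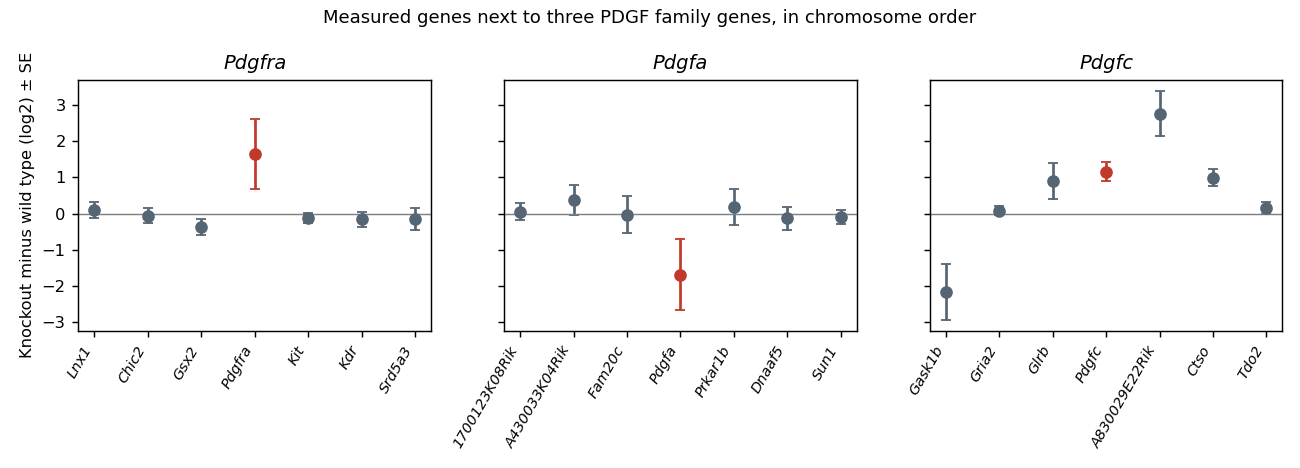
Knockout minus wild type (log2, vertical axis, bars SE) for *Pdgfra*, *Pdgfa* and *Pdgfc* and the 3 measured genes on each side, in chromosome order and not to distance. The genes beside *Pdgfra* and *Pdgfa* lie between −0.37 and 0.38, while *A830029E22Rik* and *Ctso* beside *Pdgfc* lie at 2.76 and 0.99 and *Gask1b*, on its other side, at −2.15. Several neighbours, such as *Kit* and *Gsx2*, were dim, which limits what their small differences show.

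Of 11 genes whose products activate or capture PDGFs, 1 was higher and 0 lower at an unadjusted p under 0.05, against 4.01% and 2.67% of all genes. The median was −0.039, against 0.01 over all genes. The 1 gene was *Plat*, tissue plasminogen activator, which cuts latent PDGF-C. It read 10.61, 11.42 and 11.52 in knockout, against 10.45, 10.56 and 9.94 in wild type, and the genotypes did not overlap. Its difference was 0.87 ± 0.31 (SE; limma adjusted p = 0.743), and *Plat* rose by 1.22 without replicate 1 of both genotypes (limma adjusted p = 0.0321). Values for *Pcsk6* (0.26) and *Pcsk7* (−0.29), proprotein convertases, and for *Lrp1* (−0.61), *A2m* (−0.15) and *Sparc* (0.085), which bind ligand or receptor, passed in neither setting.

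Transducers of the receptors held members on both sides. Of 25 measured, 2 were higher and 3 lower at an unadjusted p under 0.05, against 4.01% and 2.67% of all genes. The median was −0.16, and 0.049 without wild-type replicate 1. *Pik3r1*, the PI 3-kinase subunit that docks on the receptors, read 8.69, 9.06 and 9.42 in knockout, against 8.05, 8.36 and 7.94 in wild type, without overlap, and all 4 of its probe sets were higher. Its difference was 0.94 ± 0.23 (SE). *Plcg1*, phospholipase C gamma, differed by 0.82 ± 0.31, with 2 of 3 probe sets higher, and *Sos1*, which activates Ras, by 0.70 ± 0.31. *Akt1*, a kinase below PI 3-kinase, read 11.41, 10.98 and 10.99 in knockout, against 11.89, 11.99 and 11.62 in wild type, without overlap, with 3 of 4 probe sets lower. *Pik3cb*, a catalytic subunit of PI 3-kinase, differed by −1.71 ± 0.60 and *Sos2* by −1.26 ± 0.48, but in replicate 1 by 0.18 and 0.27. Without replicate 1 of both genotypes 7 of the 25 passed after adjustment, 3 higher and 4 lower, against 7.56% and 6.41% of all genes.

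Of 20 measured brakes on receptor signalling, 3 were lower and 0 higher at an unadjusted p under 0.05, against 2.67% and 4.01% of all genes. The median was 0.063, and between −0.20 and 0.12 with 1 array left out, lowest without wild-type replicate 2. *Grb10*, an imprinted adaptor that binds receptor kinases, read 12.31, 8.17 and 7.94 in knockout, against 12.10, 12.64 and 12.43 in wild type. As for *Pdgfa*, knockout replicates 2 and 3 were low and replicate 1 was not. Its difference was −2.92 ± 1.18 (SE), and without replicate 1 of both genotypes −4.48, a fall (limma adjusted p = 0.00178). *Dusp6*, an ERK phosphatase induced by ERK activity, read 10.30, 9.54 and 9.54 in knockout, against 10.89, 10.79 and 11.99 in wild type, without overlap. *Cbl*, a ligase that marks receptors for degradation, differed by −0.69 ± 0.27. On the other side, *Spry1* differed by 1.28 ± 0.66, *Spred2* by 0.50 ± 0.32 and *Spred1* by 0.39 ± 0.19. Of the 20, 4 passed without replicate 1 of both genotypes, 2 higher and 2 lower, against 7.56% and 6.41% of all genes.

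Genes that PDGF is known to induce in fibroblasts had the lowest median of the lists, −0.69 over 19 genes, 14 of them below 0. With 1 array left out the median lay between −1.01 and −0.42, nearest to 0 when that array was knockout replicate 2. At an unadjusted p under 0.05, 3 were lower and 0 higher, against 2.67% and 4.01% of all genes. *Klf6*, a zinc finger factor, read 10.23, 10.52 and 10.39 in knockout, against 11.30, 11.57 and 12.06 in wild type, and all 5 of its probe sets were lower. *Ier2*, an immediate early gene, differed by −0.84 ± 0.20 (SE) and *Plaur*, the urokinase receptor, by −1.84 ± 0.56, both without overlap. The chemokines were on the other side, with *Ccl2* at 1.93 ± 1.19, *Ccl7* at 1.87 ± 1.51 and *Cxcl1* at 1.11 ± 0.51. By replicate number the median was −0.034, −0.59 and −1.73. Without replicate 1 of both genotypes 7 of the 19 passed, 2 higher and 5 lower, against 7.56% and 6.41% of all genes. Most members answer serum and other growth factors too.

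The related receptor kinases and their ligands had a median of 0.078 over 5 genes, and 0 had an unadjusted p under 0.05. *Kitl*, the ligand of Kit, read 9.70, 11.43 and 12.58 in knockout, against 7.70, 10.24 and 10.78 in wild type. Knockout was higher at each replicate number, by 2.00, 1.19 and 1.80, but the genotypes overlapped, with a difference of 1.66 ± 1.05 (SE; limma adjusted p = 0.833). *Csf1* differed by −0.21, *Csf1r* by 0.14, *Flt3* by 0.078 and *Kit* by −0.11.

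**Figure D5:**
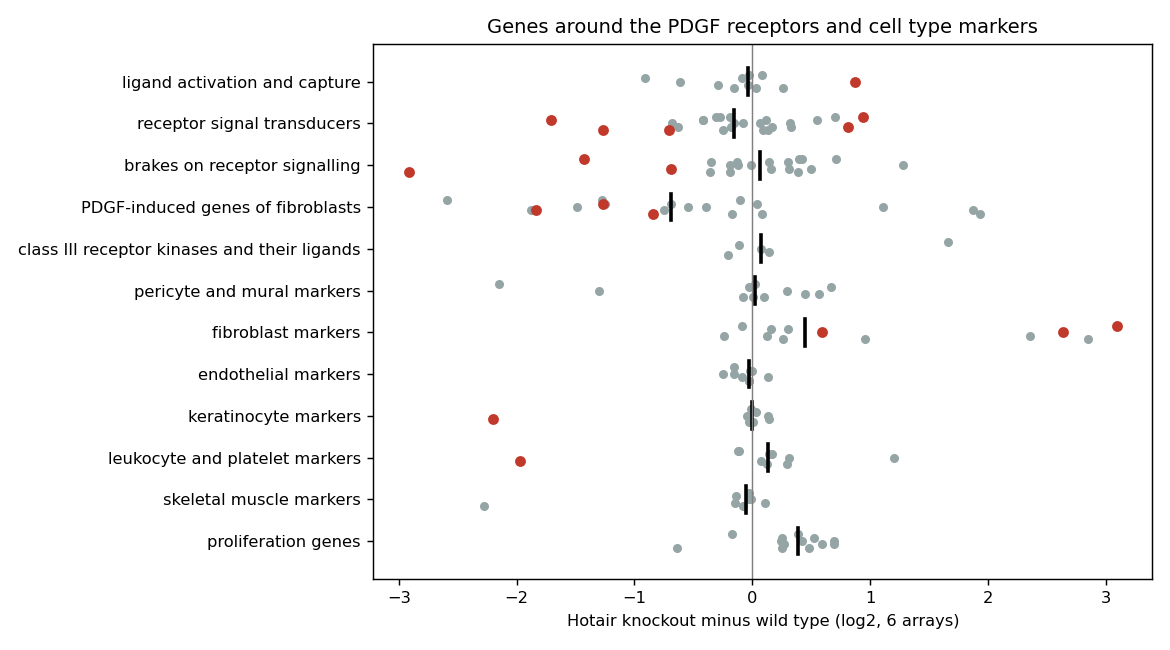
Knockout minus wild type (log2, horizontal axis, 6 arrays) of each measured gene in the lists around the PDGF receptors and in the marker lists. Red points have an unadjusted limma p under 0.05, and black bars mark medians, the lowest being −0.69 for the PDGF-induced genes.

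Fibroblast markers were bright, as the label of the cells says, with a mean log2 value over 12 genes of 12.02 to 12.23 on the knockout arrays and 10.40 to 11.77 on the wild-type arrays. Of these markers 10 lay above 0, the median was 0.45, and 3 had an unadjusted p under 0.05, all higher, against 4.01% of all genes. Without replicate 1 of both genotypes the median was 0.57. In that setting 5 of the 12 passed after adjustment, all higher, against 7.56% of all genes. *Dcn*, a matrix proteoglycan, differed by 3.10 ± 1.08 (SE) and *Col3a1*, a collagen, by 0.59 ± 0.23. Their part in the *Pdgfra* difference was not tested. Endothelial markers had means of 4.18 to 4.28 on the knockout arrays and 4.24 to 4.40 on the wild-type arrays, near the arrays' lower quartiles of 4.18 to 4.26, with *Tie1* at 3.69 to 3.78 in knockout and 3.65 to 4.24 in wild type.

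Pericyte and mural markers, of cells known for the beta receptor, had means of 5.33 to 5.90 on the knockout arrays and 5.62 to 5.78 on the wild-type arrays and a median difference of 0.022. *Rgs5*, a pericyte marker, read 4.83, 3.81 and 4.47 in knockout, against 4.12, 8.19 and 7.25 in wild type. *Cspg4*, the NG2 proteoglycan, read 8.68, 7.40 and 7.78 in knockout, against 8.03, 10.04 and 9.68 in wild type. Both were high in wild-type replicates 2 and 3. Over the 11 markers 7 lay above 0 and 4 below, and 0 had an unadjusted p under 0.05. Of the 11, 4 passed after adjustment without replicate 1 of both genotypes, against 14.0% of all genes, and they lay on both sides. *Rgs5* and *Cspg4* were lower, with differences of −3.58 and −2.27 (limma adjusted p = 0.00965 and 0.00758). *Mcam* and *Notch3*, named after their values were seen, were higher, by 1.49 and 0.78 (limma adjusted p = 0.0156 and 0.0287). Their part in the PDGF results was not tested.

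The keratinocyte, leukocyte and platelet, and skeletal muscle lists had median differences of 0.001, 0.13 and −0.055. Below 0 lay 4 of 8, 3 of 10 and 7 of 8 of their members. At an unadjusted p under 0.05, 1, 1 and 0 were lower, against 2.67% of all genes. Keratinocyte markers had means of 4.94 to 5.31 on the knockout arrays and 5.18 to 5.47 on the wild-type arrays, with *Dsp*, a desmosome protein, at −2.20 ± 0.54 (SE) and *Trp63* at 0.13 ± 0.15. Leukocyte and platelet markers had means of 5.36 to 6.51 on the knockout arrays and 5.53 to 6.06 on the wild-type arrays, with *Cd14* at −1.97 ± 0.61 and the macrophage marker *Adgre1* at 0.30 ± 0.28. Skeletal muscle markers had means of 4.82 to 5.50 on the knockout arrays and 5.15 to 5.87 on the wild-type arrays, with *Acta1* at −2.27 ± 1.58 and *Myf5* at −0.14 ± 0.13. Proliferation genes had a median of 0.39 over 13 genes, 11 of them above 0 and 2 below. *Ccne1* was at 0.53 ± 0.22 and *Rrm2*, among those below, at −0.64 ± 0.38. By replicate number that median was 0.36, 0.16 and 0.51, and without replicate 1 of both genotypes it was 0.27. With 1 array left out its direction was not stable. It was −0.61 when wild-type replicate 1 was left out, −0.054 when knockout replicate 3 was, and 0.90 when knockout replicate 1 was.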

How the data were processed

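RNA of 6 fibroblast samples was measured on Affymetrix mouse expression arrays. The authors deposited log2 values per probe set, which per the submitters' processing notes came from RMA with R version 2.11.1. RMA equalises the arrays' distributions and compresses dim differences. The annotation used upstream is not given in the sources used here. Of 45101 probe sets, 64 controls were left out, and 34945 had 1 gene. Each of 18193 genes was represented by its brightest probe set on average. limma 3.58.1 (R 4.3.3; lmFit and eBayes, two-sided, Benjamini-Hochberg at 0.05) was run with genotype alone over all genes, and separately over all 45037 probe sets. The scripts were tested on simulated data.

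Replicate numbers recur in both genotypes. Same-numbered arrays deviated together from their group averages, with correlations of 0.50, 0.49 and 0.25 for numbers 1, 2 and 3. Wild-type replicate 3, however, correlated more with knockout replicate 2 (0.33). Within a genotype the deviations cancel out, and replicate 1 stood apart in both. These correlations therefore depend on each other and cannot decide whether numbers 2 and 3 are true pairs. The labels name no pairing either. The numbers were used as pairs by assumption, on which the block and the differences by replicate number rest.

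Members, lists and the setting without replicate 1 were chosen with earlier results of these data known. All 7 members were named, in each pathway list up to 3 genes with the smallest p on each side, in each marker list up to 2 plus defining markers, and for each receptor the 3 most and the 3 least correlated genes. Genes beside *Pdgfra*, *Pdgfa* and *Pdgfc* were named by position, and those beside other members because they passed without replicate 1 of both genotypes. Promoters came from RefSeq. The number of arrays limits the precision.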

Additional observations from a re-analysis of the deposited data

How the results depend on the processing

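*Pdgfa*, *Pdgfc*, *Pdgfra* and *Pdgfrb* kept their direction under all 15 alternatives each (the replicate block, each array left out, replicate 1 of both genotypes left out, other eBayes settings, array weights, quantile normalisation, a filter at a mean of 5 and other choices of probe set). The difference itself cannot change under the replicate block, the other eBayes settings or the filter, so these do not bear on direction. For *Pdgfra*, *Pdgfa* and *Pdgfc* the most variable probe set was also the brightest. Of the alternatives, *Pdgfc* passed in 3, *Pdgfa* in 2 and the receptors in 0. Leaving out replicate 1 of both genotypes called 2542 genes, 1836 probe sets, 2 PDGF genes and 5 PDGF probe sets, with a receptor balance of 1.58. Array weights called 2101 genes and 2 PDGF genes, but 0 probe sets. Leaving out 1 array called between 0 and 87 genes, between 0 and 48 probe sets, between 0 and 1 PDGF genes and 0 PDGF probe sets, the highest without knockout replicate 1, and put the balance between 0.76 and 2.16. The replicate block changed no call at the adjusted threshold: it called 0 genes and 0 probe sets, with 2017 genes at an unadjusted p under 0.05 against 1216 without it, and left the balance at 1.35 (exact two-sided permutation within pairs, p = 0.25, the smallest that 3 pairs allow).

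Small differences changed sign. *Pdgfrl* was 0.16 without replicate 1 of both genotypes, and between −0.49 and 0.62 with 1 array left out, above 0 without knockout replicate 1, wild-type replicate 2 (0.38) or wild-type replicate 3 (0.032). *Pdgfd* was between −0.88 and 0.39 with 1 array left out, and 0.15 and 0.22 without knockout replicate 3 or wild-type replicate 1. Its probe set 1426319_at was between −0.52 and 0.17, and 0.027 without knockout replicate 3. *Pdgfb* was −0.053 as the mean of its probe sets and between −0.0073 and 0.38 with 1 array left out. The *Pdgfrb* probe set 1417148_at was between −0.096 and 0.40. The causes were not tested. With 1 array left out, the median of the ligand activation list lay between −0.20 and 0.049, of the pericyte markers between −0.074 and 0.21 and of the leukocyte and platelet markers between −0.086 and 0.23. Dim signal limits what can be said of *Pdgfb* and of the dimmer *Pdgfd* probe sets.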
